A study of Homo sapiens with 12 samples.

Results

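The mitochondrial ribosomal protein genes are described here in THP-1 macrophages transfected with a synthetic miR-122-5p or with a control mimic. THP-1 is an established line from a human monocytic leukaemia that is widely used as a model of macrophages. The members were all protein-coding genes of the GENCODE 29 annotation named MRPL or MRPS with a number. There were 78 of them among the 58735 genes of the deposited count table, and all 78 were among the 15471 genes that passed the filter on low counts. Both groups received 30 nM of mimic with RNAiMAX for 24 h, were then rested, and were then stimulated with lipopolysaccharide (LPS) for 4 h, so neither group shows unstimulated or untransfected cells. There were 6 libraries in each group, all from a single cell line. The labels do not say whether the libraries of a group were grown separately. The p-values therefore set the difference between the groups against the spread of these libraries, and that spread may be technical. The labels place the comparison in a study of how exosomal miR-122-5p acts on immune cells.

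The mitochondrial ribosome, or mitoribosome, translates the few proteins that the mitochondrial genome encodes, all of them parts of the respiratory chain and the ATP synthase. Its ribosomal RNAs come from the mitochondrial genome, whereas every one of its proteins is encoded in the nucleus, made in the cytosol and imported. Many of these proteins have a counterpart in the bacterial ribosome, from which the mitoribosome descends, and the others were added during mitochondrial evolution. MRPL genes encode proteins of the large subunit and MRPS genes mostly proteins of the small subunit. MRPS30 and MRPS18A are large-subunit proteins despite their names, and MRPS36 is now known as a part of the oxoglutarate dehydrogenase complex.

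Libraries held 29473750 to 39468157 counts. Of 8 monocyte and macrophage markers, 7 were present in every library, with CSF1R, the receptor for macrophage colony-stimulating factor, at 419 to 635 CPM (read counts scaled to the library total). CD68 was at 0.0336 to 0.502 CPM, and 85.8% of its exonic bases overlap another gene. The T-cell markers CD3D, CD3E and CD2 and the epithelial marker EPCAM were at 0 in all 12 libraries. The GC content of transcripts moved with the groups: the slope of log2 CPM on GC content, per 10 percentage points and relative to the mean of the libraries, was 0.0336 to 0.229 in the miR-122-5p libraries and -0.318 to 0.0119 in the control libraries. The 2 groups of slopes were fully separated (exact permutation test, two-sided, p = 0.00216, which is the smallest value possible for 6 against 6 libraries). Results are therefore given below from the counts as deposited and, where it matters, after trends with the GC content and length of transcripts had been removed from each library, or with the GC slopes entered as a covariate.

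Most members that differed between the groups were higher with miR-122-5p. With edgeR's quasi-likelihood test, 28 of the 78 members were called higher (adjusted p under 0.05), 9 were called lower and 41 were not called. Over all tested genes, 24.3% were called higher and 26.2% lower. The 37 called members were 47.4% of the members, against 50.5% of all genes, so a member was called about as often as any other gene and the members' share of higher calls lay above the share over all genes. The median log2 fold change of the members was 0.13, against 0.01 over all tested genes. Members ranged from -0.83 for MRPL40 to 2.04 for MRPL12, and the median standard error of a member's fold change was 0.09.

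In 26 members (33.3%) the CPM of the groups did not overlap, against 29.5% of all genes. An increase of at least 2-fold was called in 6 members, where 3.79% of all genes passed that rule; a fall of that size was called in 5.55% of all genes, and the largest fall of a member was smaller. Summed over the 78 members, expression was 2615 to 3108 CPM in the miR-122-5p libraries (median 2772) and 2399 to 2656 CPM in the control libraries (median 2457), with a narrow overlap between the groups. In these bulk libraries, a change in the number of cells that express a gene and a change in its RNA per cell cannot be told apart.

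**Figure D1:**
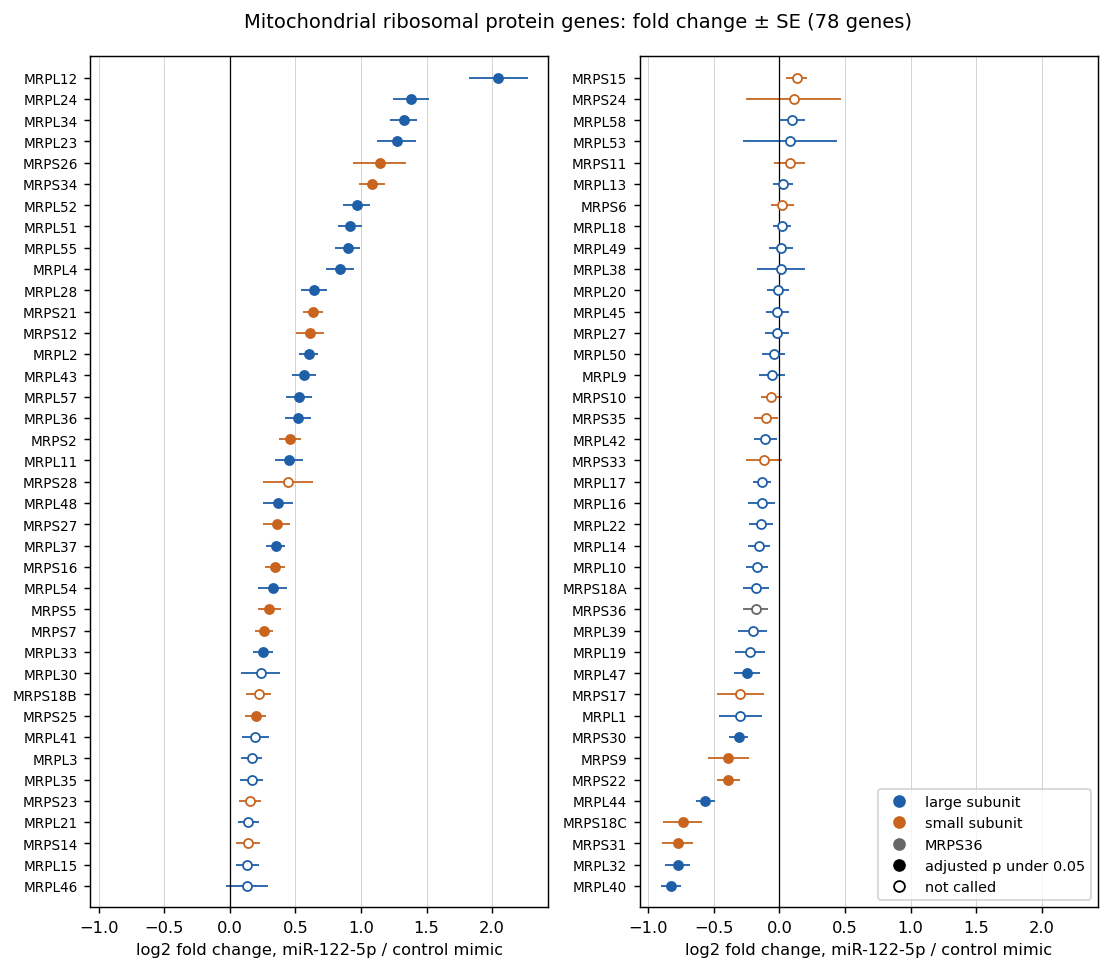
Log2 fold change of each of the 78 members, miR-122-5p over control mimic (horizontal axis), with the standard error as a bar and members ordered by fold change. MRPL12 lies farthest to the right at 2.04 and MRPL40 farthest to the left at -0.83, and the 28 members called higher outnumber the 9 called lower.

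MRPL12 had the largest rise. The protein forms the flexible stalk of the large subunit, where translation factors dock. Its gene (ENSG00000262814) lies on chromosome 17 at 81703357 to 81707526 of GRCh38, on the plus strand. MRPL12 was at 3.92, 7.94 and 9.90 CPM (lowest, median and highest library) with miR-122-5p and at 0.793, 1.99 and 2.21 CPM in the control libraries. All miR-122-5p libraries lay above all control libraries. The log2 fold change was 2.04 ± 0.23 (SE; edgeR's quasi-likelihood test, adjusted p = 1.61e-07). An overlapping readthrough gene, AC139530.2, covers 68.2% of the exonic bases of MRPL12 and was at 0 counts in all libraries, so the level of MRPL12 itself is uncertain.

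MRPL23 and MRPL24 encode proteins that line the tunnel through which new proteins leave the large subunit. MRPL24 (chromosome 1, 156737303 to 156741590, minus strand) was at 32.3, 38.3 and 46.5 CPM with miR-122-5p and at 8.998, 14.96 and 20.4 CPM with the control mimic. Its groups were fully separated, with a log2 fold change of 1.38 ± 0.13 (adjusted p = 2.79e-08). MRPL23 (chromosome 11, 1947278 to 1984522, plus strand) was at 51.3, 57.8 and 73.7 CPM against 13, 26.9 and 31.4 CPM, again without overlap (1.27 ± 0.15, adjusted p = 2.83e-07).

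MRPL34, the counterpart of the small bacterial protein bL34, had the smallest p of the members. The gene (chromosome 19, 17292609 to 17306843, plus strand) was at 30.3, 38.7 and 43.8 CPM with miR-122-5p and at 11.8, 15.4 and 18.1 CPM in the control libraries. Every miR-122-5p library was above every control library (1.33 ± 0.10, adjusted p = 9.50e-10).

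The small subunit's largest rises were in MRPS26 and MRPS34, both proteins without a bacterial counterpart. MRPS34 (chromosome 16, 1771890 to 1773155, minus strand) was at 53.8, 67.7 and 80.2 CPM against 28.5, 30.6 and 39.6 CPM. The groups did not overlap, and the log2 fold change was 1.08 ± 0.10 (adjusted p = 1.70e-08). MRPS26 was at 3.80, 5.70 and 6.80 CPM against 1.71, 2.26 and 3.82 CPM; its lowest miR-122-5p library fell just below the highest control library (1.14 ± 0.20, adjusted p = 6.47e-05).

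MRPL40 had the largest fall. The gene encodes a large-subunit protein without a bacterial counterpart and lies on chromosome 22 at 19431902 to 19436075, plus strand. It was at 24.6, 26.5 and 31.1 CPM with miR-122-5p and at 40.2, 49.4 and 51.5 CPM in the control libraries. The groups were separated by a wide gap (-0.83 ± 0.08, adjusted p = 2.03e-08). With a transcript GC content of 59.3%, MRPL40 fell although GC-rich genes as a class were higher with miR-122-5p.

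The next falls were in MRPL32, MRPS31 and MRPS18C. MRPL32, a zinc-binding protein that a mitochondrial protease trims before it is built into the large subunit, was at 17.7, 19 and 23.2 CPM against 29.1, 33.5 and 41.8 CPM (-0.78 ± 0.09, adjusted p = 4.94e-07). MRPS31, a small-subunit protein without a bacterial counterpart, was at 4.46, 5.52 and 6.46 CPM against 8.08, 9.27 and 11.3 CPM (-0.77 ± 0.12, adjusted p = 1.21e-05). Neither gene had overlapping groups. Pseudogenes named for MRPS31 took 2.95% as many counts as the gene itself.

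MRPL44, a large-subunit protein with a fold like that of RNase III, was among the more abundant members. It was at 53.6, 57.1 and 59.5 CPM with miR-122-5p and at 71.1, 87.4 and 94.1 CPM in the control libraries, with no overlap (-0.57 ± 0.07, adjusted p = 1.07e-06). MRPS22, a small-subunit protein without a bacterial counterpart, was at 16.5, 18.1 and 19 CPM against 19.9, 23 and 27.1 CPM (-0.39 ± 0.09, adjusted p = 0.000702). The groups of MRPS22 were close but did not overlap.

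**Figure D2:**
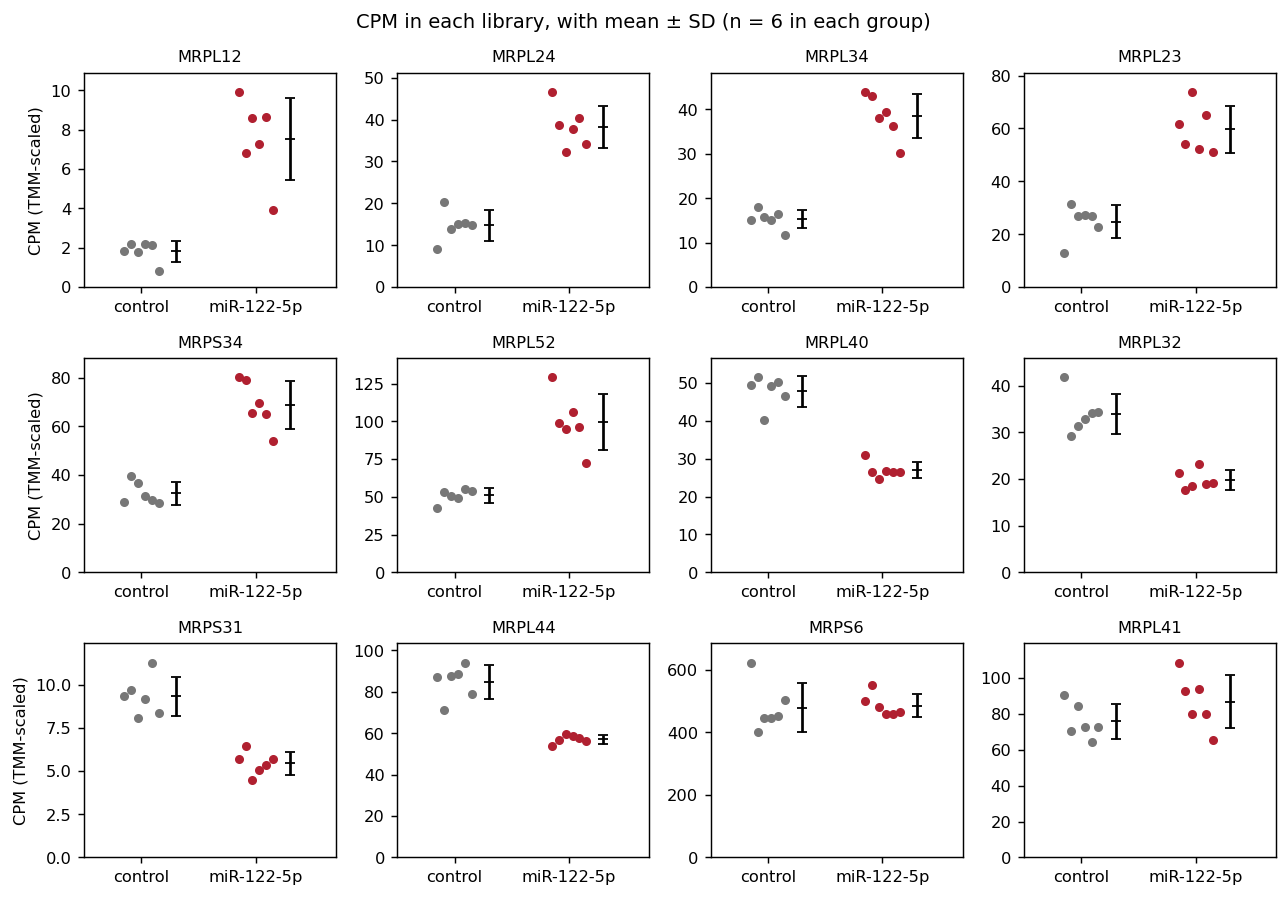
CPM (vertical axis, from 0, scaled by TMM factors) of 12 members in each library, control mimic in grey and miR-122-5p in red, with the mean and SD of 6 libraries beside each group. The groups of MRPL12, MRPL24, MRPL34, MRPL23, MRPS34 and MRPL52 are separated upward and those of MRPL40, MRPL32, MRPS31 and MRPL44 downward, while those of MRPS6 and MRPL41 overlap.

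Leaving out each of the 12 libraries in turn kept 33 of the 37 calls. The 4 others had changes near the threshold. MRPL54 (0.32, adjusted p = 0.0218) was no longer called without miR-122-5p replicate 1 (adjusted p = 0.0753) or control replicate 5 (adjusted p = 0.0530). MRPL47 (-0.25, adjusted p = 0.0382) was lost without miR-122-5p replicate 1, 2, 4, 5 or 6 or control replicate 3, 4 or 5 (adjusted p = 0.0520 to 0.120). MRPS9 (-0.39, adjusted p = 0.0437) was lost without miR-122-5p replicate 2, 3 or 5 or control replicate 2, 4 or 5 (adjusted p = 0.0689 to 0.134). MRPS25 (0.20, adjusted p = 0.0461) was lost without miR-122-5p replicate 3, 5 or 6 or control replicate 4 or 5 (adjusted p = 0.0554 to 0.118). None of these 4 members had separated groups.

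Higher and lower members were found in both subunits. Of the 51 large-subunit members, 18 were called higher and 5 lower, with a median log2 fold change of 0.10. Of the 26 small-subunit members, 10 were called higher and 4 lower, with a median of 0.14. The 46 members with a bacterial counterpart had 17 higher and 4 lower (median 0.14), and the 31 without one had 11 higher and 5 lower (median 0.10). These medians differ by less than the median standard error of a single member, and no difference between the groups of members was tested.

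The following sets of members that sit close together in the ribosome were picked after the values had been seen. In the stalk, MRPL12 and MRPL11 (0.45 ± 0.11, adjusted p = 0.00118) were called higher, while MRPL10, which anchors MRPL12, was not called (-0.17 ± 0.08, adjusted p = 0.0873). Around the exit tunnel, MRPL23 and MRPL24 rose 2.41-fold and 2.60-fold, MRPL47 was called lower (-0.25; 0.04 and not called with the GC and length correction), and MRPL17 (-0.13), MRPL22 (-0.14) and MRPL45 (-0.02) were not called.

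The 3 MRPS18 paralogues come from copies of a single bacterial gene, and their proteins take different places in the mitoribosome. Only MRPS18C was counted above among the members with a bacterial counterpart. MRPS18A and MRPS18B were counted among those without one. MRPS18C, in the small subunit, was at 3.90, 4.94 and 5.85 CPM with miR-122-5p and at 6.67, 7.22 and 10.9 CPM with the control mimic, without overlap (-0.74 ± 0.15, adjusted p = 0.000298). Of its exonic bases, 40.2% overlap ABRAXAS1 on the other strand, whose counts were also lower (-0.62, adjusted p = 0.0333), and the reads of the pair cannot be told apart if counting ignored strand. MRPS18A (-0.18, adjusted p = 0.138) and MRPS18B (0.22, adjusted p = 0.0580) were not called and had overlapping groups. MRPS18B was called higher without miR-122-5p replicate 3 (adjusted p = 0.0418) and without control replicate 1 (0.0140) or 2 (0.04995).

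Other members are known for work beside or outside the ribosome's core. MRPL58, a peptidyl-tRNA hydrolase that frees stalled mitoribosomes, was at 15.6, 17.5 and 18.7 CPM against 12.3, 17 and 18.5 CPM (0.10 ± 0.10, adjusted p = 0.443). MRPS36 was at 12.6, 16 and 17.3 CPM against 15.7, 17.3 and 20.8 CPM (-0.18 ± 0.09, adjusted p = 0.116). Both had overlapping groups. MRPS30, first described as a protein linked to programmed cell death, was at 29.6, 32.8 and 33.8 CPM against 36.7, 40.04 and 45.3 CPM and was called lower without overlap (-0.31 ± 0.07, adjusted p = 0.00117).

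Per kilobase of exon, members spanned more than 2 orders of magnitude. MRPS6 stood highest at 112 CPM per kilobase, followed by MRPL37 (67.6), MRPL41 (64.5) and MRPL18 (64.4). The lowest were MRPS24 (0.270) and MRPL46 (0.458), and the median member was at 9.51 CPM per kilobase. MRPS6 was at 457, 473 and 552 CPM with miR-122-5p and at 402, 450 and 623 CPM with the control mimic, so the most abundant member showed no detectable difference (0.02 ± 0.09, adjusted p = 0.865). Its locus also holds SLC5A3 on the same strand, at 280 ± 29.4 and 304 ± 24.6 CPM (SD, n = 6), which covers part of the exonic bases (9.61% with all overlapping genes). MRPL37 was at 172, 188 and 217 CPM against 136, 153 and 161 CPM and was called higher, without overlap (0.35 ± 0.07, adjusted p = 0.000340). MRPL18 was at 81.9, 89.7 and 96.7 CPM against 82.7, 88.0 and 94.1 CPM, nearly the same range in both groups (0.02 ± 0.07, adjusted p = 0.834).

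At low counts the precision was poorer. MRPS24 was at 0.419, 0.562 and 1.47 CPM against 0.395, 0.675 and 0.935 CPM, and its log2 fold change of 0.11 had a standard error of 0.36 (adjusted p = 0.827). Of its exonic bases, 23.2% overlap a readthrough gene. MRPL53, at 0.274 to 1.43 CPM over all libraries and 45.2% covered by CCDC142, was as imprecise (0.08 ± 0.36, adjusted p = 0.873).

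Exons shared with other genes bear on some members. In 14 members at least 20% of the exonic bases overlap another gene; 6 of these were called higher and 1 lower. In the 64 others 22 were higher and 8 lower, and their median was 0.13, the value over all members. Beside MRPL12, the largest overlaps were in MRPS18A (47%, with RSPH9), MRPL53, MRPL38 (41.1%), MRPS18C, MRPL9 (38.5%), MRPL43 (36.9%, with SEMA4G and TWNK) and MRPS28 (35.8%). MRPL43 was called higher (0.57 ± 0.09, adjusted p = 1.85e-05), and MRPL38 (0.01), MRPL9 (-0.06) and MRPS28 (0.44, adjusted p = 0.0550) were not called. MRPS28 was called without miR-122-5p replicate 2 (adjusted p = 0.0475) and without control replicate 1 (0.0461), 2 (0.0294) or 5 (0.0407). The annotation names 75 pseudogenes for 34 members, and only those of MRPL45 (6.39%) and MRPS31 had more than 1% as many counts as their gene.

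The members' fold changes followed the GC content of their transcripts. Across the 78 genes the Pearson correlation of fold change with GC content was 0.545 (Spearman 0.555), a description across genes of the same libraries, which are not independent replicates. The 26 members of lowest GC content (33.5% to 43.8%) had 2 higher and 6 lower calls and a median log2 fold change of -0.11, where 7.95% of all genes of this range were higher and 43.1% lower. The 26 in the middle (44.2% to 51.8%) had 9 higher and 2 lower (median 0.12), against 17.5% and 27.7% of all genes. The 26 of highest GC content (52.2% to 71.9%) had 17 higher and 1 lower (median 0.49), against 42.2% and 11.9%. All tested genes in these 3 ranges had medians of -0.25, -0.05 and 0.28, so the members' medians followed the general trend and lay above it in each range.

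After each library's trends with GC content and length had been removed, 39 members were called higher and 10 lower (all genes: 23.3% higher and 23.5% lower, 46.8% together), with a median of 0.18. The correlation with GC content was then 0.020, and the medians of the 3 ranges were 0.16, 0.18 and 0.24. With the GC slope covariate, 11 members were called higher and 4 lower (all genes: 7.23% and 12.2%), with a median of 0.16. Thus the median stayed above 0 in all 3 fits, whereas the number of calls depended on the fit.

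**Figure D3:**
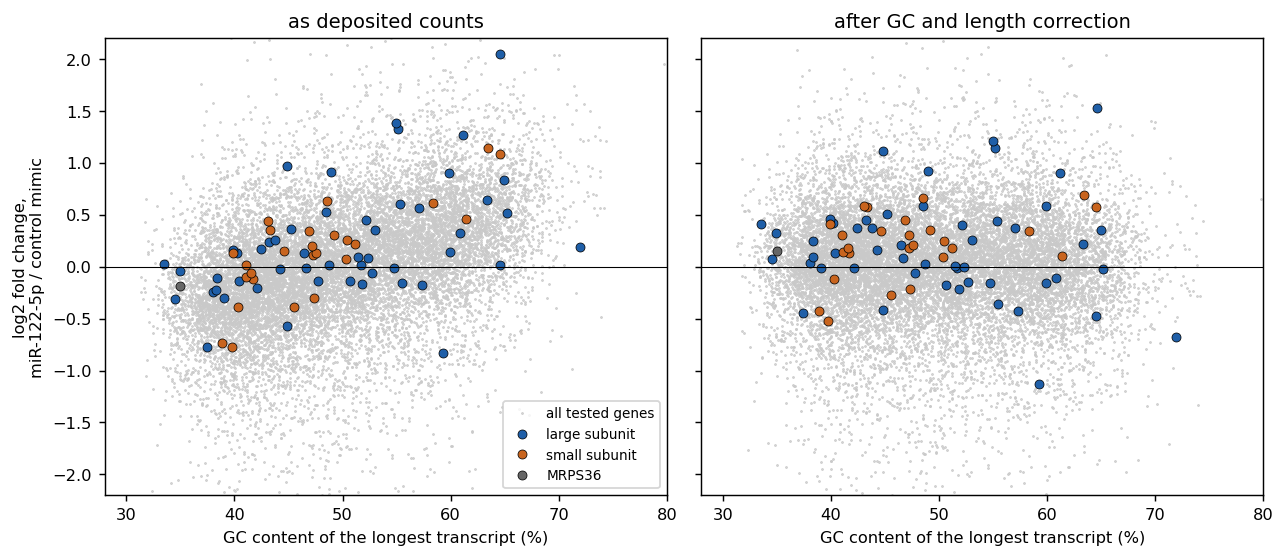
Log2 fold change (vertical axis) against the GC content of the longest transcript (horizontal axis, %) for members of the large subunit in blue, of the small subunit in orange and MRPS36 in grey, over all tested genes in light grey; genes beyond the axis range are not drawn. The upward trend in the left panel (deposited counts, r = 0.545 for the members) is flat in the right panel (GC and length correction, r = 0.020).

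The correction decided the call of some members. The calls of 7 members ended with it: MRPL36, MRPS2 and MRPL54 had been higher and MRPL47, MRPS30, MRPS9 and MRPS22 lower. MRPL36, which has a bacterial counterpart, was at 17.2, 18.8 and 19.6 CPM against 9.40, 13.5 and 14.9 CPM (0.52 ± 0.10, adjusted p = 0.000158), and its corrected fold change was -0.02 (adjusted p = 0.867). MRPS2 went from 0.46 (adjusted p = 0.000114) to 0.11 (0.256). MRPS30 went from -0.31 to 0.08 (0.352) and MRPS22 from -0.39 to -0.12 (0.175).

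A further 19 members gained a call, 14 of them higher and 5 lower. MRPL41, the member of highest GC content at 71.9%, was at 65.6, 86.7 and 109 CPM against 64.5, 72.7 and 90.8 CPM, with overlapping groups. From the deposited counts it was not called (0.19 ± 0.10, adjusted p = 0.127), though it was without miR-122-5p replicate 6 (adjusted p = 0.0220) or control replicate 1 (0.0347). After the correction it was called lower (-0.68, adjusted p = 0.000816). The most abundant member, MRPS6, went from 0.02 to 0.30 (adjusted p = 0.00178).

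Other members kept their calls with the correction and lost them with the GC slope covariate. MRPL4 (0.84, adjusted p = 7.67e-07), MRPL28 (0.64, adjusted p = 1.62e-05), MRPS12 (0.61, adjusted p = 6.80e-05), MRPL43, MRPL57 (0.53, adjusted p = 0.000128) and MRPS26 were no longer called with it. MRPS12 is the counterpart of the bacterial protein at the decoding centre, MRPL4 and MRPL28 have counterparts in the bacterial large subunit, and MRPL57 has none. MRPS18C, lower in the other 2 fits, had a fold change of -0.09 with the covariate and was not called.

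In all 3 fits 14 members were called the same way, and in all 14 the groups did not overlap. The share of all tested genes called the same way in all 3 fits was not counted. Whether members passed this rule more often than other genes is therefore not known. The 10 higher ones were MRPL12, MRPL24, MRPL34, MRPL23, MRPS34, MRPL52, MRPL51, MRPL55, MRPS21 and MRPL2. The 4 lower ones were MRPL40, MRPL32, MRPS31 and MRPL44. MRPL24 had fold changes of 1.38, 1.21 and 0.73 over the fits (deposited counts, correction, covariate), MRPL34 of 1.33, 1.14 and 0.96, and MRPL40 of -0.83, -1.13 and -0.85.

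A mimic can lower transcripts that pair with its seed, so the members' 3′ UTRs were searched for it. The mature miR-122-5p sequence is shown with its seed, bases 2 to 8, in capitals (RefSeq, GRCh38.p14):
hsa-miR-122-5p: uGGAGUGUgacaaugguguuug
In the longest annotated 3′ UTR of each member, a full match to the seed followed by an A (an 8mer, ACACTCCA) was present in MRPS11 and MRPL42. Both are shown with 11 bases on either side, the match in capitals:
MRPS11: agtcatcgtttACACTCCAtgggcttcagc
MRPL42: tgcattcagagACACTCCAccttattttct
Neither gene was called. MRPS11 was at 9.36, 10.9 and 12.8 CPM with miR-122-5p and at 8.11, 10.2 and 12.2 CPM with the control mimic (0.08 ± 0.12, adjusted p = 0.619). MRPL42 was at 14.7, 16.1 and 17.2 CPM against 15.3, 16.9 and 20.4 CPM (-0.11 ± 0.09, adjusted p = 0.324), and the GC and length correction made it a higher call (0.24, adjusted p = 0.00802).

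A shorter match, CACTCCA (a 7mer-A1), was the strongest in 11 other members, of which 5 were called higher and 6 not called. In 9 of these 11 members the match lay within a longer word of the Alu repeat, and all 5 called higher were among them. The matches of MRPL21 and MRPL30 did not lie in that word. The share called higher among all tested genes with a 7mer-A1 was not counted. An 8mer or 7mer site was present in 13 of the 78 members (16.7%), against 25.7% of all tested protein-coding genes. The members' UTRs were shorter (median 592.5 bases against 1592). Of the 9 members called lower, none had an 8mer, 7mer or 6mer match in its longest 3′ UTR, and these 9 stood among the 58 members with no match, of which 20 were called higher. Among all tested protein-coding genes, 31.5% of those with an 8mer were called lower, and 31.9% with a 7mer-m8 (ACACTCC), which no member had. The share was 30.6% with a 7mer-A1, 24.6% with a 6mer and 28.7% with no match.

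The promoters of the members were searched for 3 motifs of factors known to act on nuclear genes for mitochondria. RefSeq promoters (GRCh38.p14, 250 bases before to 50 after the start) were matched for 69 members, and each motif was searched on both strands. The NRF1 motif, GCGC and TGCGC with any 1 base between them, was in 9 members (13%, against 12.9% of 10204 tested genes with a promoter), and the ETS motif CCGGAAGT, bound by GABPA, in 12 (17.4%, against 9.77%). The YY1 motif AAGATGGC was in 21 (30.4%, against 6.41%). Of these 21, 6 were called higher, 3 lower and 12 not called. Over all tested genes, 24.3% were called higher and 26.2% lower, and the difference from these shares was not tested. A match is a description of the letters and does not show binding.

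Promoters of 7 members hold 2 or more of the motifs. Of these, MRPL36, MRPL51 and MRPL52 were called higher, MRPL47 was called lower, and MRPL20, MRPL38 and MRPL45 were not called. Stretches of MRPL52 and MRPL36 are shown on the strand of the gene, with the motifs in capitals:
MRPL52, chr14:22829778-22829899, plus strand: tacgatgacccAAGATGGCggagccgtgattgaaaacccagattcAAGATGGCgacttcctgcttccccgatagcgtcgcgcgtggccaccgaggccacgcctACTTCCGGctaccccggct
MRPL36, chr5:1799854-1799958, minus strand: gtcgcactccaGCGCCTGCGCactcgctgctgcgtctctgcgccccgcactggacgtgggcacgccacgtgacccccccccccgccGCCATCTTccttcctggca
MRPL52 has AAGATGGC in 2 places and the ETS word on the opposite strand, and MRPL36 has the NRF1 word and AAGATGGC on the opposite strand. In most members the YY1 word stood elsewhere: of 17 members with it on the strand of the gene, 16 had it after the start, at offsets of 6 to 35 bases. The word holds the letters ATG. Of 486 tested protein-coding genes with such a match, 367 had it after the start. In the 150 bases before the start, 3 members (4.35%) held the word, against 1.39% of all genes. Of the factors themselves, NRF1 (-0.21 ± 0.10, adjusted p = 0.0819) and YY1 (-0.02 ± 0.06, adjusted p = 0.850) were not called, and GABPA was called lower (-0.26 ± 0.10, adjusted p = 0.0330). With the GC and length correction GABPA was at 0.10 and not called (adjusted p = 0.232).

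Many members start near a neighbour that is read from the other strand. For 29 members another tested gene on the other strand starts within 1000 bases, with MRPS11 and MRPL46 as each other's neighbour, counted from both sides. In 6 pairs both genes were called higher, in 3 both were lower, and in 1 the calls were opposite. Only the member was called in 5, only the neighbour in 7 and neither in 7. With the GC and length correction, an alternative chosen for the pairs after seeing the data, both genes were higher in 4 pairs and lower in 3, and the calls were opposite in 3. Of the 6 pairs with both genes higher, 2 kept both calls, and of the 3 with both lower, 2 did. No test was made on the pairs. How often such pairs agree over all tested genes, of which 50.5% were called, was not counted. The agreement is therefore not a result about the members.

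MRPL32 and PSMA2, a proteasome subunit, start 23 bases apart with the starts crossing over. PSMA2 fell as MRPL32 did, from 4.10 ± 0.661 to 2.10 ± 0.563 CPM (SD, n = 6; -0.96, adjusted p = 0.000204). MRPL36 starts 34 bases from NDUFS6, a complex I subunit, which rose from 31.0 ± 3.09 to 52.3 ± 7.68 CPM (0.75, adjusted p = 8.16e-07). MRPL52 had the pair with opposite calls. It was called higher (0.97 ± 0.10, adjusted p = 1.06e-07), and its neighbour SLC7A7, an amino acid transporter that starts 59 bases away, was called lower, at 119 ± 8.14 CPM against 157 ± 5.90 CPM (-0.39, adjusted p = 2.44e-05).

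The pairs with the closest starts included members that were not called. MRPL13 and MTBP (1.07, adjusted p = 0.0543) start 2 bases apart, and MRPL27 and EME1 (0.82, adjusted p = 0.0948) 6 bases apart; neither gene of these pairs was called. MRPL21, 7 bases from IGHMBP2, was not called (0.14, adjusted p = 0.153), while IGHMBP2 was higher (0.46, adjusted p = 0.000250). MRPL30, 21 bases from MITD1, was not called (0.23, adjusted p = 0.208), while MITD1 was lower (-0.74, adjusted p = 5.61e-06).

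**Figure D4:**
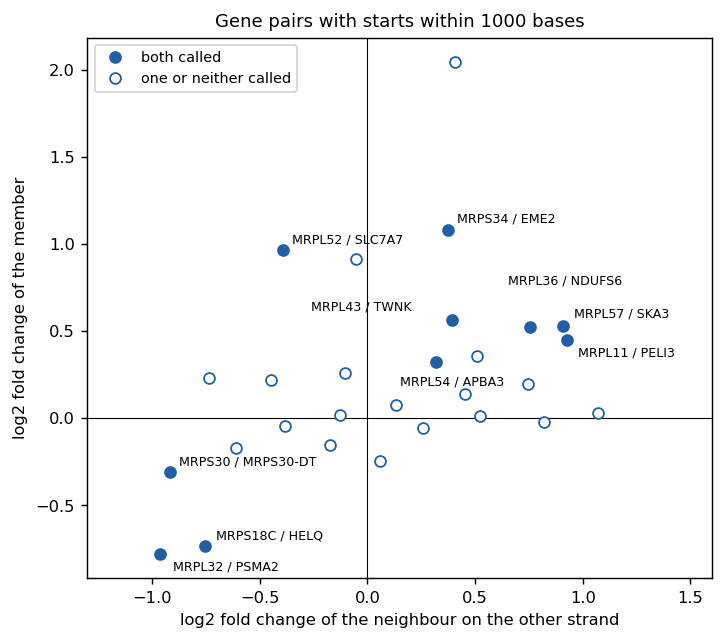
Log2 fold change of the member (vertical axis) against that of the neighbour on the other strand (horizontal axis) for pairs with starts within 1000 bases. MRPS11 and MRPL46 are drawn as a single pair, with MRPS11 as the member. Filled points are pairs with both genes called. Of the filled pairs, 6 lie at the upper right, 3 at the lower left, and MRPL52 with SLC7A7 at the upper left.

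The mitoribosome has a few proteins whose genes carry other names, and 3 of these 5 were called higher. AURKAIP1, at 76.4, 92.6 and 115 CPM against 25.7, 54.8 and 63.2 CPM, had the largest change and no overlap (0.87 ± 0.15, adjusted p = 4.69e-05). CHCHD1 (0.42) and GADD45GIP1 (0.43) were also higher, and DAP3 (0.09) and PTCD3 (-0.08) were not called. GADD45GIP1 was not called with the GC and length correction (0.12, adjusted p = 0.139). With the GC slope covariate AURKAIP1 was at 0.02 (adjusted p = 0.950), and none of the 5 genes was called.

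Factors that build the mitoribosome and modify its RNA had 10 of 27 genes higher and 4 lower, with a median of 0.11. The largest rise was in RBFA, a maturation factor of the small subunit, at 2.34, 2.85 and 3.30 CPM against 0.875, 1.03 and 1.19 CPM, without overlap (1.45 ± 0.19, adjusted p = 1.32e-06). It was called in all 3 fits. MPV17L2 (0.68), the pseudouridine synthase gene RPUSD3 (0.59) and TRUB2 (0.45) were also higher. None of these 3 was called with the GC slope covariate (adjusted p = 0.341, 0.231 and 0.423).

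Of 18 translation factors 3 were higher and 4 lower (median -0.00), and with the GC and length correction 6 were higher and 1 lower (median 0.13). TUFM, the mitochondrial elongation factor that brings aminoacyl-tRNA to the ribosome, was at 133, 141 and 154 CPM with miR-122-5p and at 90.0, 96.0 and 108 CPM with the control mimic (0.55 ± 0.07, adjusted p = 4.58e-07). TSFM, which recharges TUFM, was at 10.1, 11.9 and 13.3 CPM against 15.8, 17 and 22.6 CPM (-0.59 ± 0.10, adjusted p = 4.04e-05). Both genes had separated groups, in opposite directions. Overlapping genes cover 28.5% of the exonic bases of TSFM. The call of TSFM held with the correction (-0.47, adjusted p = 0.000205) and ended with the covariate (-0.45, adjusted p = 0.0726). The release factor gene MTRF1 was lower in the deposited counts (-0.58, adjusted p = 0.00114) and was not called with the correction (-0.28, adjusted p = 0.0773) or the covariate (-0.33, adjusted p = 0.403).

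Of 16 tested mitochondrial aminoacyl-tRNA synthetases, 4 were higher and 1 lower (median 0.13). CARS2 (0.51), AARS2 (0.49), VARS2 (0.58) and MARS2 (0.64) rose. With the GC slope covariate CARS2 was still called higher (0.40, adjusted p = 0.00762). AARS2 (0.26, adjusted p = 0.300), VARS2 (0.30, adjusted p = 0.386) and MARS2 (0.66, adjusted p = 0.116) were then not called. Of 16 genes for mitochondrial transcription and RNA processing, 5 were higher and 5 lower (median 0.10). The mitochondrial RNA polymerase POLRMT was higher (0.70 ± 0.09, adjusted p = 8.80e-07), and the exoribonuclease PNPT1 was lower, at 109, 126 and 144 CPM against 281, 320 and 370 CPM (-1.33 ± 0.08, adjusted p = 3.23e-11). POLRMT was at 0.20 with the correction (adjusted p = 0.00625) and was not called with the covariate (0.26, adjusted p = 0.0748). The call of PNPT1 held in all 3 fits. Among 8 tested regulators of nuclear genes for mitochondria, 3 were higher and 2 lower. MYC (0.68), ESRRA (0.75) and PPARGC1B (0.50) were called higher, and GABPB1 (-0.42), a subunit of the ETS factor named above, lower. GABPB1 was not called with the correction (-0.11, adjusted p = 0.185) or the covariate (-0.10, adjusted p = 0.661). With the covariate ESRRA was at 0.06 (adjusted p = 0.758) and MYC at 0.41 (adjusted p = 0.0733), and the call of PPARGC1B held in all 3 fits.

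The calls of the RNAs that the mitochondrial genome supplies depended on the fit. Of 15 mitochondrial rRNAs and mRNAs, 3 were called lower and 12 were not called (median -0.11). With the GC and length correction 2 were called higher, MT-CO3 (0.31, adjusted p = 0.0191) and MT-ND3 (0.32, adjusted p = 0.00820), and 1 lower, MT-ATP8 (-1.33, adjusted p = 0.00120), with a median of 0.02. The large-subunit rRNA MT-RNR2 was lower (-0.19 ± 0.07, adjusted p = 0.0287), the small-subunit rRNA MT-RNR1 was not called (-0.07 ± 0.13, adjusted p = 0.689), and the corrected fold change of MT-RNR2 was 0.00 (adjusted p = 0.985). Both rRNAs together took 0.604 ± 0.037% of counts in the miR-122-5p libraries and 0.664 ± 0.080% in the control libraries (SD, n = 6; two-sided exact permutation p = 0.130). Without control replicate 1 the difference was -0.085 percentage points (exact permutation p = 0.0108).

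The transcripts of other large protein sets moved more evenly than those of the members. Of the 77 cytosolic ribosomal proteins, 68 were called higher and 1, RPS23, lower, with a median of 0.46. Of 37 tested complex I subunits, 23 were higher and 4 lower, with a median of 0.33. For the members these values were 28, 9 and 0.13. With the GC and length correction the counts were 65 higher and 1 lower, 26 and 4, and 39 and 10. With the GC slope covariate they were 47 higher and 1 lower, 12 and 0, and 11 and 4. The difference between the lists was not tested.

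**Figure D5:**
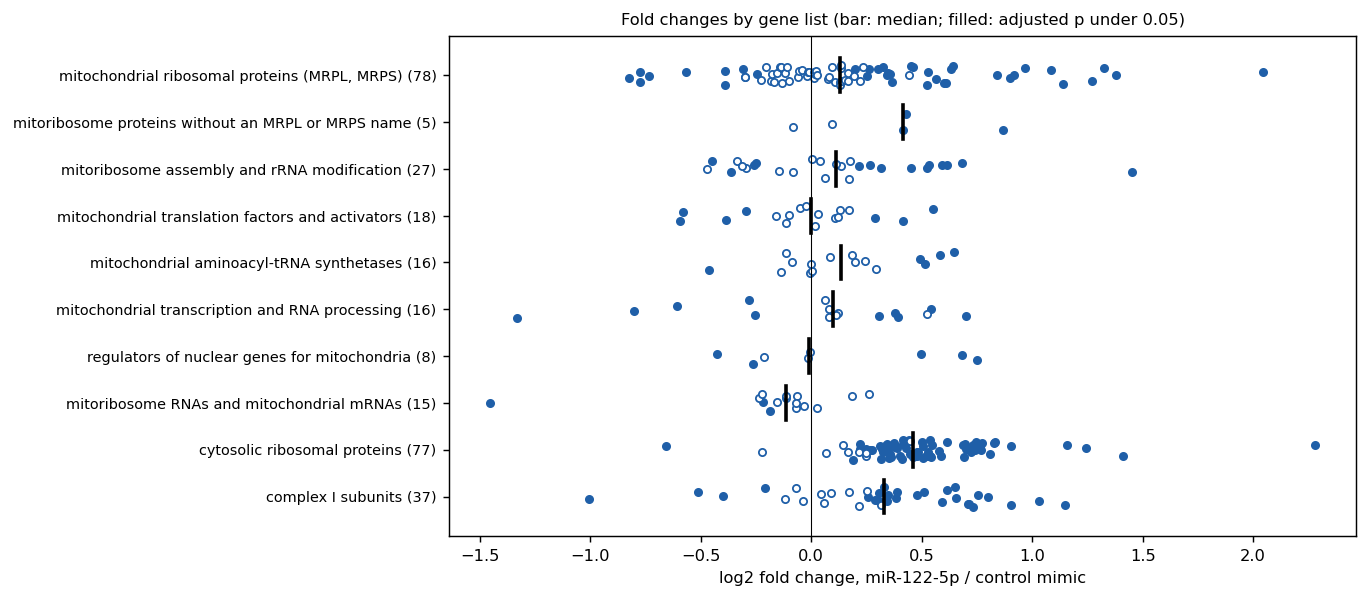
Log2 fold change (horizontal axis) of each tested gene in the members and 9 related lists, with the number of tested genes in brackets, a bar at the median and filled points for adjusted p under 0.05. The members spread around a median of 0.13, the cytosolic ribosomal proteins lie almost all to the right of 0 (median 0.46), and the mitochondrially encoded RNAs centre slightly to its left (median -0.11).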

How the data were processed

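The authors deposited a single table of raw read counts per gene, without normalization, for 12 libraries. Reads were aligned and counted with tools that the submitters' processing notes list as HISAT2 2.0.5 and featureCounts 1.5.0-p3, with the hg38 build. The strand setting of the counting, like its annotation, was not given in the sources used here. All 58735 identifiers were found in GENCODE 29. Library totals were 29473750 to 39468157 counts, and the control libraries were identified by column name and number. No library repeated another of its group, since the 30 pairs gave a chi-square of 7.97 to 75.2 per degree of freedom.

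In R 4.3.3, genes were filtered with filterByExpr, scaled by TMM and compared by the quasi-likelihood test of edgeR 4.0.16, with Benjamini-Hochberg adjustment over all 15471 genes. Fold changes (log2, with SE) have the control group as the denominator, and CPM is scaled by TMM. The fit was tested on simulated data. The correction removed each library's trends with GC content and log length of the longest transcript (natural splines, 4 degrees of freedom) as offsets. Per-library values were compared by exact permutation. Alternatives were DESeq2 1.42.0, limma 3.58.1 (voom), other scalings and filters, a stricter threshold, the replicate number as a block and each library left out.

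The members and lists were chosen with earlier results of these data known. Named members were the 6 largest called changes in each direction, the 4 smallest p, the 4 highest and 2 lowest per kilobase, those with known roles or 8mer sites, those whose call turned with the correction or covariate or whose exons overlap (up to 8 each), and the 6 closest divergent pairs; in each list, up to 4 of smallest p. Others named in the sets of neighbours in the ribosome or the divergent pairs, and those named for calls that left-out libraries ended, were chosen after their values were seen.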

Additional observations from a re-analysis of the deposited data

Results flagged for a closer look

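In 9 of 158 sets of 6 libraries (each of the 78 members and the share of counts in both mitochondrial rRNAs, in each group), a single library stood apart from the rest of its group; chance flags about 1 set in 20. In the control group, MRPL12 was at 0.793 CPM in replicate 6 (others 1.80 to 2.21), MRPL2 at 25.9 CPM in replicate 6 (others 30.6 to 32.6), MRPL43 at 15 CPM in replicate 1 (others 19 to 20.5) and MRPL14 at 75.3 CPM in replicate 1 (others 57.4 to 62.6). In the miR-122-5p group, replicate 1 was highest for MRPL4 at 26.9 CPM (others 20.9 to 22.6), MRPL40 at 31.1 CPM (others 24.6 to 26.8) and MRPS16 at 47.8 CPM (others 36.8 to 39.8). MRPL19 was at 10.4 CPM in miR-122-5p replicate 6 (others 7.36 to 8.40) and MRPS18B at 17.7 CPM in replicate 2 (others 13.7 to 15.2). MRPL19 was not called with all libraries (-0.23, adjusted p = 0.111 by edgeR) and was called lower without miR-122-5p replicate 6 (-0.30, adjusted p = 0.0342) or control replicate 2 (-0.28, adjusted p = 0.0400). The calls of MRPL12, MRPL2, MRPL4, MRPL40, MRPL43 and MRPS16 held with each library left out.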

How the results depend on the processing

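Member counts stayed within 26 to 31 higher and 7 to 9 lower under DESeq2, limma-voom, the other scalings, filters and threshold, the replicate block and without mitochondrially encoded genes, and within 27 to 32 higher and 7 to 10 lower with each library left out. With the GC slope covariate 11 members were higher and 4 lower, all genes had 1118 higher and 1887 lower calls (against 3756 and 4054), and 73 genes of the 9 related lists were called (against 143); the covariate follows the groups, so covariate and group cannot be told apart in that fit. The members' median of 0.13 became 0.17 with library totals, 0.18 with the GC and length correction and 0.18 with that correction and the block. Among members called from the deposited counts or with that correction, signs turned in 9. Without and with the replicate block, these were MRPL36 (-0.020, -0.016), MRPL38 (-0.473, -0.494), MRPL41 (-0.679, -0.613), MRPL42 (0.245, 0.244), MRPL47 (0.038, 0.046), MRPL50 (0.327, 0.332), MRPL54 (-0.113, -0.093), MRPS10 (0.180, 0.182) and MRPS30 (0.076, 0.076). Signs also turned in members called in neither fit, among them MRPL21 (0.14 to -0.16), MRPL22 (-0.14 to 0.14) and MRPS36 (-0.18 to 0.15). The correction was built to remove GC and length trends, and no further cause was tested. The YY1 word was in 3 members within 150 bases before the start, a shorter window. The difference in the share of both mitochondrial rRNAs ran from -0.085 to -0.041 percentage points with each library left out. Same-numbered libraries had correlations of deviations from -0.105 to 0.066, and 1 of 6 numbers had its own as the closest, so the numbers were not taken as a pairing; the block gave 28 higher and 7 lower members. Low counts limit MRPS24 and MRPL53 most.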
